A study of Mus musculus with 12 samples.

Results

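The 9 genes described here (Lrp2bp, Metrn, Yipf7, St8sia5, Epha7, Cpe, Tmtc1, Kcne1l and Thpo) were selected on their measured counts, because their RNA was higher than control in moderate FSHD-like mice and lower than control in severe FSHD-like mice, once genes of lymphocytes and blood vessels were set aside. They are 9 of 37748 genes in the table and 9 of the 16679 genes that passed the filter on low counts. They are not all the genes with this pattern, since 9 others were called the same way with TMM and are named below. The choice used the values of the control, moderate and severe mice, so those values, and whether each gene passed the calling rule, describe what the choice itself fixed, carry no p and support nothing further. Tests are given for the FLExD/+ mice, the relative transcript length and genes outside the 9. The rise in moderate mice was found under each scaling of the libraries that was tried. The fall in severe mice was not: it was seen when libraries were scaled by the trimmed mean of M values (TMM), which takes most genes as unchanged, and for 7 of the 9 genes the sign turned when each library was divided by its total count alone.

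The data are RNA-seq of gastrocnemius muscle from 12 mice at 13 weeks of age, in 4 groups of 3 separately numbered animals, made to model facioscapulohumeral muscular dystrophy (FSHD) at graded severity. The controls were ACTA1-MCM/+ mice without tamoxifen (TMX), which carry the tamoxifen-inducible Cre (MerCreMer) under a skeletal actin promoter and no DUX4 transgene. FLExD/+ mice without TMX carry the inverted, Cre-dependent FLExDUX4 transgene and no Cre. Their labels describe them as mild pathology, a term the study's methods use for bi-transgenic mice without TMX, which were not analysed here, so the group is named by its genotype. Moderate and severe mice are hemizygous for both transgenes. The moderate mice received 1 intraperitoneal injection of 5 mg/kg TMX, and the severe mice received 2 injections of 10 mg/kg on consecutive days. Bi-transgenic muscles were taken 9 days after TMX. By the labels, no group received TMX without carrying both transgenes, so TMX and DUX4 induction cannot be told apart in these mice, and a dose step changes both. Recombination is mosaic, so each muscle mixes fibers with and without induced DUX4. The sex of the animals is not given in the sources used here. In whole muscle, fewer cells of a type and less RNA per cell cannot be told apart.

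DUX4 is a human transcription factor of early development whose misexpression in skeletal muscle causes FSHD and is toxic to muscle fibers. The 9 genes belong to no single pathway. Thpo and Metrn encode secreted ligands, and Epha7 encodes a cell-surface receptor. Kcne1l encodes a channel subunit. Cpe, Tmtc1 and St8sia5 encode enzymes of the secretory pathway, Yipf7 a membrane protein of the early secretory pathway, and Lrp2bp a partner of an endocytic receptor. Secretory pathway proteins fold, trim and add sugars to the proteins that a cell displays or releases, and in muscle many such proteins serve contact with nerve and matrix.

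Promoter windows of RefSeq on GRCm38.p6, from 250 bases before to 50 bases after an annotated start, were matched by symbol for 6 of the 9 genes in 8 windows. Cpe, Yipf7 and St8sia5 are named only. The windows were searched on both strands for 4 motifs. The E-box CANNTG, the site of myogenic bHLH factors, stood in 4 of the 8 windows, those of 4 genes (Kcne1l, Metrn, Thpo and Tmtc1), and in 72.3% of all 32851 windows. CCAAT, the box bound by NF-Y, stood in 5 of the 8 windows, those of 4 genes (Epha7, Lrp2bp, Metrn and Thpo), and in 37.4% of all windows. The MEF2 consensus and the DUX4 consensus were found in 0 of the 8 windows, against 3.19% and 0.103% of all windows. An E-box and a CCAAT box can share bases, and each was counted on its own. These 3 windows are printed 5′ to 3′ on the gene's strand to show how unlike they are, with each CCAAT or its reverse complement ATTGG in capitals. The Lrp2bp window (chr8:46010352-46010651, plus strand) holds 4 such boxes, the Metrn window (chr17:25796996-25797295, minus strand) holds 3, and the Kcne1l window (chrX:142306149-142306448, minus strand) holds 0.
Lrp2bp: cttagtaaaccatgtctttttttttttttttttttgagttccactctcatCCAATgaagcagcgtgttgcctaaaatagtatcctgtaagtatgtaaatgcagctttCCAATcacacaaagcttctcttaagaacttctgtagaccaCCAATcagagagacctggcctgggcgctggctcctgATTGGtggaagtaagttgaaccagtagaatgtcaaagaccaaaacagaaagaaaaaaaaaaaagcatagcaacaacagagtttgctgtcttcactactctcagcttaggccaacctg
Metrn: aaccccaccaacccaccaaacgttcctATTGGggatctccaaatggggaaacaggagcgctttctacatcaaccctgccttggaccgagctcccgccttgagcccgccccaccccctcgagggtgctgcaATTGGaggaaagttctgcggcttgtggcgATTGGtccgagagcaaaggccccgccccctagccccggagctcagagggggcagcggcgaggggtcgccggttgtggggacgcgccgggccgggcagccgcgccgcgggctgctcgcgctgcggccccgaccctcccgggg
Kcne1l: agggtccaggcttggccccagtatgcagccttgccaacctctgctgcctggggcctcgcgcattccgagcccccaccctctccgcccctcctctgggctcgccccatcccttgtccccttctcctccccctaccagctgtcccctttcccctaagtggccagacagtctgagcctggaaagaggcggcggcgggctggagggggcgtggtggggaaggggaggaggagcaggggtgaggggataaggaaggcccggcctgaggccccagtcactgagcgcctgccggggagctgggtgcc

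Libraries held 23796902 to 29136403 estimated counts. The TMM factors, which multiply the library size, lay between 0.706 and 0.760 in the 6 single-transgenic mice, between 1.06 and 1.13 in the moderate mice and between 1.69 and 1.87 in the severe mice. The labelled tissue was checked with 8 mature fast fiber markers (Acta1, Ckm, Mb, Myh4, Myh1, Tnnt3, Pvalb and Atp2a1), all present in each group. Their summed level, in CPM (counts scaled to a common library total, here without TMM), was 103580 to 139355 in control mice, 70081 to 80124 in moderate mice and 17166 to 29497 in severe mice. The part of this change in the values below was not tested. Levels below are CPM, given first with TMM and then with library size alone. Changes are log2 fold changes against control from edgeR. Their standard error (SE) was derived as the absolute change divided by the square root of edgeR's quasi-likelihood F statistic.

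With TMM, all 9 genes were higher in moderate than in control mice, by 0.68 to 2.23 on the log2 scale, and all 9 passed the calling rule of a Benjamini-Hochberg adjusted p under 0.05 and a log2 change of at least 0.5. The share of all tested genes called higher in that comparison was 24.4%. In severe mice the same 9 genes were called lower, with log2 changes from −1.53 to −0.53, where 27.9% of all tested genes were called lower. Against moderate mice the severe mice were lower by 1.38 to 2.87 on the log2 scale in all 9, where 18.8% of genes were called lower. With library size alone, all 9 were again called higher in moderate mice (52.5% of all genes), and all 9 were called lower when severe mice were set against moderate mice (4.93% of all genes). Against control, 0 of the 9 were then called lower in severe mice (6.42% of all genes) and 4 were called higher (75.4% of all genes). These counts follow from the choice of the genes and from the scaling.

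**Figure D1:**
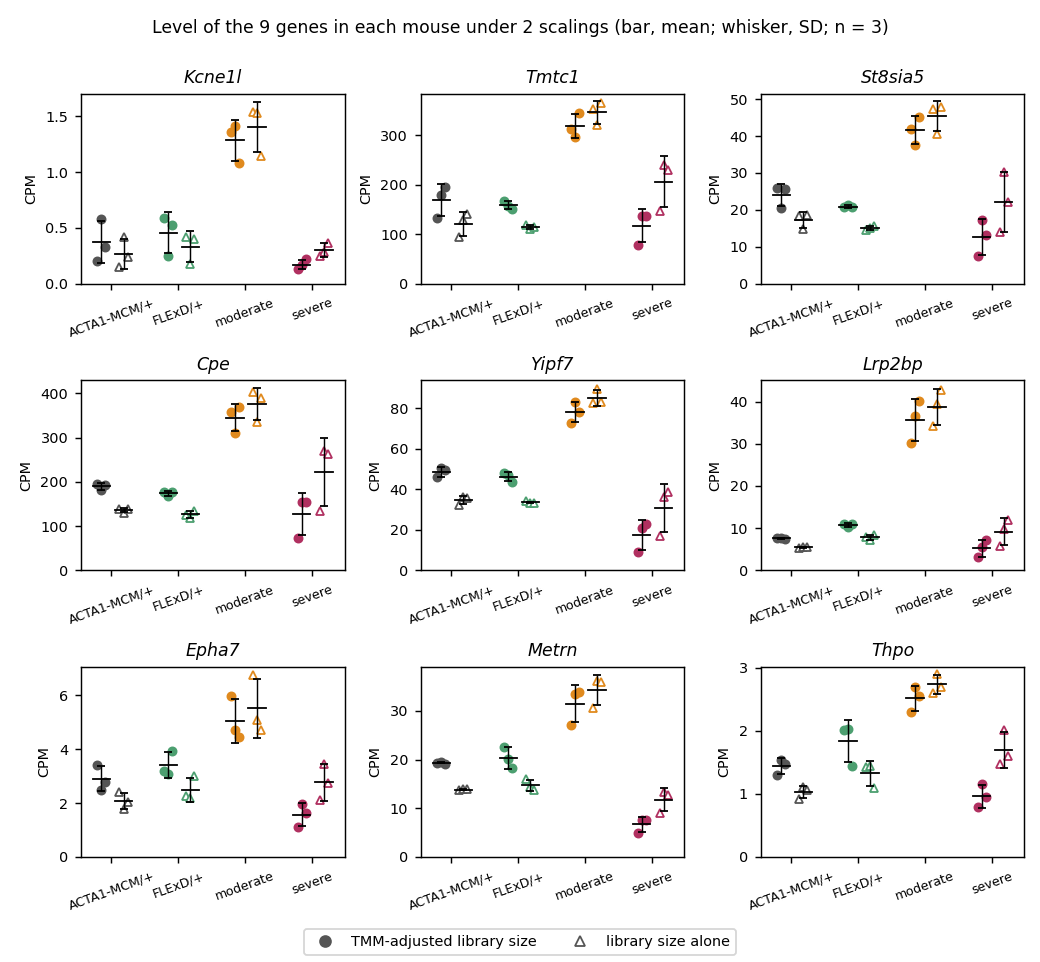
Level of each of the 9 genes in each mouse, in CPM on a linear axis from 0. Filled circles are scaled by TMM and open triangles by library size alone, bars are means and whiskers the SD of 3 mice. The 3 moderate mice stand above all control and FLExD/+ mice in each panel under both scalings, while the severe mice stand below all controls for 7 of 9 genes with TMM and for 1 of 9, Metrn, with library size alone.

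The scaling moved the reference point rather than the order of the genes. The median change of all 16679 genes in severe mice was 0.08 with TMM and 1.39 with library size alone, and in moderate mice it was 0.04 and 0.65. Measured from those medians, the 9 genes lay 0.64 to 2.19 above the median gene in moderate mice under either scaling. In severe mice they lay 0.61 to 1.61 below the median gene with TMM and 0.62 to 1.62 below it with library size alone. On log2(TPM + 1), where TPM is the deposited level corrected for transcript length, the 9 lay 0.21 to 1.14 below a median of 0.79 in severe mice. The median of the 9 was 0.80 in moderate and −0.88 in severe mice with TMM, and 1.41 and 0.41 with library size alone.

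**Figure D2:**
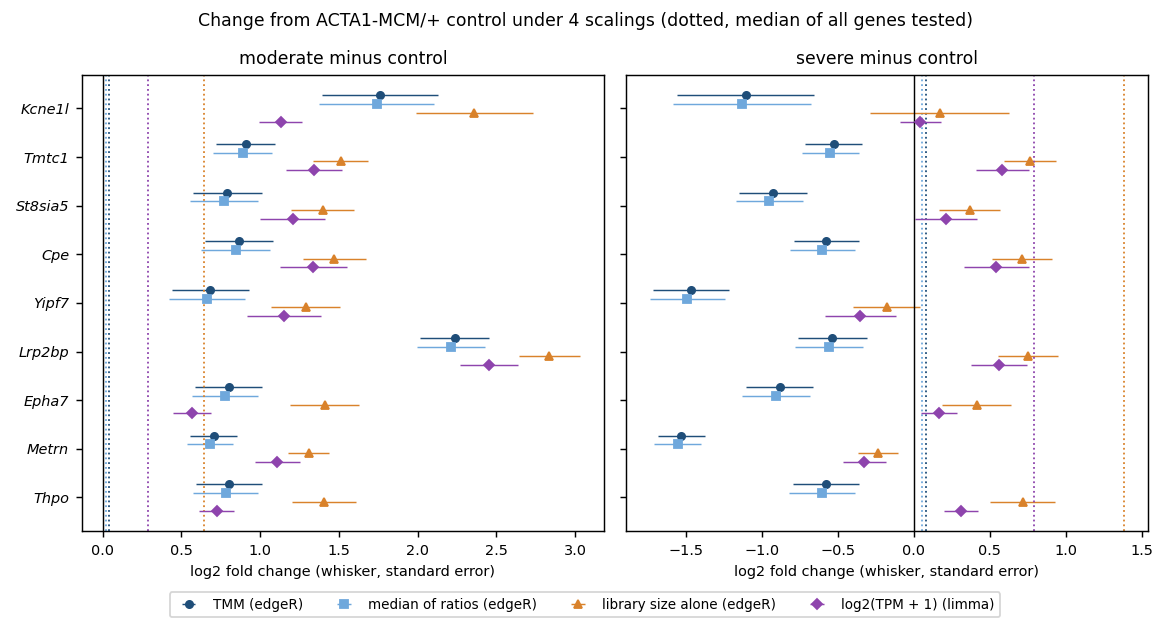
Log2 fold change against control of each gene in moderate mice (left) and severe mice (right) under 4 scalings. Symbols are estimates, whiskers standard errors, and dotted lines the median of all genes tested under the same scaling. In moderate mice all estimates are above 0. In severe mice the TMM and median-of-ratios estimates are below 0, and with library size alone or log2(TPM + 1) only Metrn and Yipf7 stay below 0.

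Thpo encodes thrombopoietin, the secreted ligand that drives platelet production. With TMM its level was 1.30, 1.54 and 1.47 CPM in the 3 control mice, 2.30, 2.69 and 2.55 in moderate mice and 0.789, 1.16 and 0.942 in severe mice. The moderate mice were above and the severe mice below all controls, with log2 changes of 0.80 (SE 0.21) and −0.58 (SE 0.22). With library size alone the severe mice held 1.47, 2.02 and 1.60 CPM against 0.914, 1.11 and 1.06 in controls, so the groups then stood apart in the opposite order, with a log2 change of 0.72 (SE 0.21).

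Metrn encodes meteorin, a secreted protein known from glial cell differentiation and axon growth. Its TMM level was 19.4, 19.5 and 19.2 CPM in control mice, 27.1, 33.6 and 33.9 in moderate mice and 4.87, 7.69 and 7.56 in severe mice. The control mice differed little among themselves, and neither bi-transgenic group overlapped them. The log2 changes were 0.70 (SE 0.15) and −1.53 (SE 0.15). Metrn was 1 of the 2 genes whose severe value kept its sign with library size alone, where the severe mice held 9.09, 13.4 and 12.8 CPM against 13.7, 13.97 and 13.9 in controls. Those groups still did not overlap, and the log2 change was −0.23 (SE 0.13), short of the calling rule.

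Epha7 encodes a receptor tyrosine kinase of the Eph family, bound by ephrins on neighbouring cells. It was a low-level gene, with 3.42, 2.51 and 2.80 CPM in control mice, 5.99, 4.72 and 4.44 in moderate mice and 1.13, 1.98 and 1.62 in severe mice with TMM. The groups did not overlap, and the log2 changes were 0.80 (SE 0.21) and −0.88 (SE 0.22). By library size the severe mice held 2.10, 3.46 and 2.74 CPM and the control mice 2.41, 1.80 and 2.03, which overlap, with a log2 change of 0.41 (SE 0.23).

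Kcne1l, a single-exon gene of the X chromosome, encodes a KCNE subunit that modulates voltage-gated potassium channels. It was the lowest of the 9 in counts. The control mice had 4, 12 and 7 counts, the FLExD/+ mice 12, 5 and 11, the moderate mice 43, 41 and 33, and the severe mice 6, 7 and 9. The moderate mice stood well above the rest, whereas the control and severe counts overlapped. With TMM its level was 0.207, 0.578 and 0.332 CPM in control mice, 1.36, 1.41 and 1.08 in moderate mice and 0.135, 0.165 and 0.217 in severe mice. Even on this scale 1 severe mouse lay above 1 control mouse. The log2 changes were 1.76 (SE 0.37) and −1.11 (SE 0.45), and with library size alone the severe change was 0.17 (SE 0.46).

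Cpe encodes carboxypeptidase E, which trims basic residues from prohormones and neuropeptide precursors. It was the highest of the 9 per transcript length in control mice, at 103, 97.1 and 107 TPM. Its TMM level was 196, 182 and 192 CPM in control mice, 357, 311 and 368 in moderate mice and 72.1, 155 and 155 in severe mice. Here 1 severe mouse, number 1047, was far below the other two, which lay nearer to the controls. The log2 changes were 0.86 (SE 0.22) and −0.58 (SE 0.22). The same severe mice held 135, 271 and 262 CPM with library size alone against 138, 130.3 and 139 in controls, and the log2 change was 0.71 (SE 0.20).

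Tmtc1 encodes an O-mannosyltransferase of the endoplasmic reticulum that acts on cadherins. Its TMM level was 134, 179 and 195 CPM in control mice, 312, 297 and 344 in moderate mice and 78.9, 138 and 136 in severe mice. The moderate mice were above all others, but the severe and control mice overlapped, since severe mice 1066 and 1079 were above control mouse 1127. The log2 changes were 0.91 (SE 0.19) and −0.53 (SE 0.19), and with library size alone the severe change was 0.76 (SE 0.17).

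St8sia5 encodes a sialyltransferase that extends gangliosides. Its TMM level was 26.0, 20.5 and 25.6 CPM in control mice, 41.9, 37.7 and 45.2 in moderate mice and 7.57, 17.3 and 13.1 in severe mice. The 3 groups did not overlap, although the severe mice differed among themselves more than the controls did. The log2 changes were 0.79 (SE 0.22) and −0.92 (SE 0.22). Scaled by library size alone, the severe mice held 14.1, 30.2 and 22.2 CPM, on both sides of the control values of 18.3, 14.7 and 18.5, and the log2 change was 0.37 (SE 0.20).

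Yipf7 encodes a membrane protein of the YIP1 family, which works between the endoplasmic reticulum and the Golgi. Its TMM level was 46.0, 50.5 and 49.5 CPM in control mice, 73.0, 83.2 and 78.4 in moderate mice and 9.18, 20.8 and 22.9 in severe mice. The groups stood well apart, with log2 changes of 0.68 (SE 0.24) and −1.46 (SE 0.25). When each mouse was left out in turn, the rise passed the calling rule in 3 of 12 fits and the fall in 12 of 12. The severe mice held 17.1, 36.3 and 38.9 CPM by library size alone, against 32.4, 36.2 and 35.8 in controls. Only mouse 1047 was then below the controls, and the log2 change was −0.18 (SE 0.22).

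Lrp2bp encodes a protein that binds the cytoplasmic tail of the endocytic receptor Lrp2 (megalin). It rose most of the 9 in moderate mice, to 4.71 times the control level with TMM. Its level was 7.56, 7.66 and 7.49 CPM in control mice, 30.3, 36.5 and 40.2 in moderate mice and 3.09, 5.54 and 7.08 in severe mice. The severe mice were below all controls, the nearest by a small step. The log2 changes were 2.23 (SE 0.22) and −0.53 (SE 0.23), and the second passed the calling rule in 3 of the 12 fits that left out 1 mouse, the fewest of the 9. By library size alone the severe mice held 5.76, 9.68 and 11.996 CPM and lay above the controls at 5.34, 5.50 and 5.42, with a log2 change of 0.76 (SE 0.20).

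Across the 9 genes the moderate mice stood above all control mice in 9 of 9 with TMM and in 9 of 9 with library size alone, against 32.6% and 65.4% of all genes. The severe mice stood below all controls in 7 of 9 genes with TMM (34.9% of all genes), the exceptions being Tmtc1 and Kcne1l, and in 1 of 9 with library size alone (7.88% of all genes), which was Metrn. They stood above all controls in 3 of 9 with library size alone (Lrp2bp, Thpo and Tmtc1), against 79.4% of all genes. The severe mice stood below all moderate mice in 9 of 9 genes on both scales, against 30.8% of all genes with TMM and 7.82% with library size alone. The order moderate above severe therefore did not turn on the scaling in these data, whereas the place of severe mice relative to control did.

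A rank within each library needs no scaling between libraries. Among the 16679 tested genes, ordered by TPM, Lrp2bp stood at percentile 47.7 to 49.8 in control mice, 79.2 to 83.3 in moderate mice and 28.8 to 45.7 in severe mice. Metrn stood at 83.3 to 83.6 in control mice, 88.4 to 91.2 in moderate mice and 55.5 to 67.1 in severe mice. Kcne1l stood at 12.5 to 25.4, 32.6 to 36.4 and 5.2 to 9.3. The ranks of these 3 genes rose in moderate mice and fell in severe mice without overlap with the controls. These are the mice that the choice used, so the order of the ranks restates it. How many of all genes stand apart in rank was not counted. The FLExD/+ mice reached the moderate ranks for Epha7, at 24.5 to 29.0 against 24.2 to 27.3 in moderate mice. They did so for Thpo too, at 28.2 to 33.2 against 32.3 to 34.7. Cpe, near the top of the ranking in all groups, moved least, from 96.5 to 96.8 in control mice to 98.3 to 98.5 in moderate mice, and its severe range of 95.0 to 97.5 spanned the control range. A rank is relative to the other genes of the library, as TMM is.

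**Figure D3:**
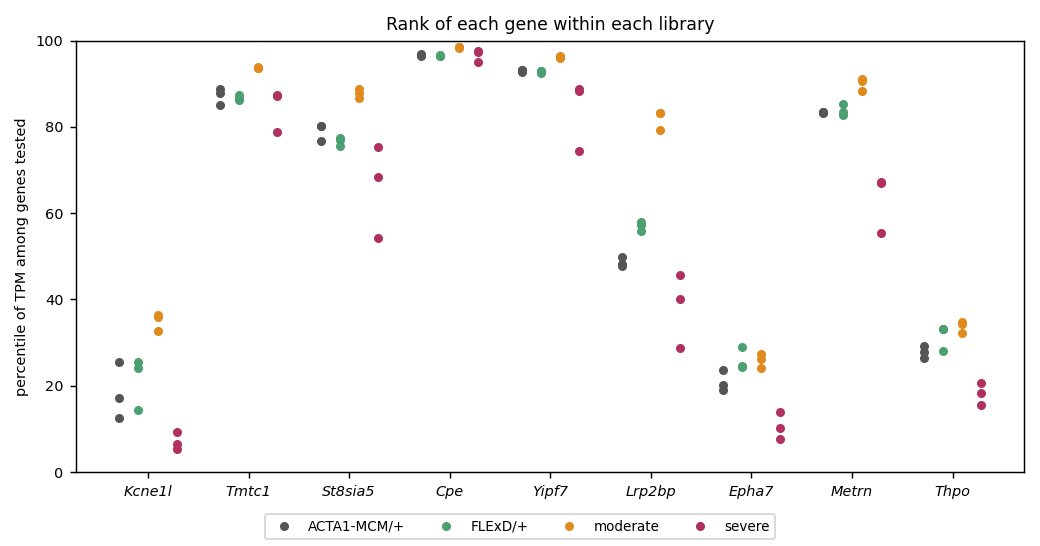
Percentile of each gene's TPM among the 16679 tested genes of the same library, 1 point per mouse, coloured by group. Moderate mice stand above control mice for all 9 genes, and severe mice below them for all but Cpe and Tmtc1, whose severe and control points overlap. The genes were chosen for this order, and the share of all genes that stand apart in rank was not counted. For Epha7 and Thpo the moderate points overlap those of the FLExD/+ mice.

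The FLExD/+ mice were not used to choose the genes. With TMM, FLExD/+ mice held 11.0, 10.2 and 11.0 CPM of Lrp2bp, all above the 3 control mice and below the moderate mice. The log2 change was 0.50 (SE 0.23), with an unadjusted p of 0.0447 and a Benjamini-Hochberg adjusted p of 1.0 in edgeR's quasi-likelihood test over all genes. Cpe was the other gene whose FLExD/+ mice did not overlap the controls, at 178, 168 and 177 CPM, all lower, with a log2 change of −0.12 (SE 0.22). Groups that did not overlap in 2 of 9 genes compare with 8.6% of all genes. The log2 changes of the 9 genes ran from −0.20 for St8sia5 to 0.50 for Lrp2bp. None of the 9 was called by edgeR, DESeq2 or limma, and 1 of the 9 (Lrp2bp) had an unadjusted p under 0.05 by each of these tools, against 3.83% of all genes in edgeR. Adjusted p lay between 0.751 and 1.0 over the alternatives, and 0.006% of all genes were called. This comparison uses the same control mice as the others.

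The pattern that defined the genes was rare among all genes and depended on the scaling. With TMM, 18 of 16679 genes (0.108%) were called higher in moderate and lower in severe mice, the 9 described here and 9 others (2410137F16Rik, Ccdc69, Hras1, Ighm, Mrvi1, Myh11, Nampt, Parm1 and Tceal5). With library size alone 9 genes (0.054%) met the same rule. None of them was among the 9 described here, and Ighm, an immunoglobulin heavy chain gene, was the 1 gene common to both scalings. Just inside the threshold in severe mice with TMM were Parm1, at −0.52, and, of the 9, Tmtc1 and Lrp2bp, both at −0.53. Just outside it were Lipt1, at 0.56 in moderate and −0.50 in severe mice, Aarsd1 at 0.72 and −0.40, and Sh2d4a at 0.81 and −0.39.

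By profile, the genes outside the 9 that came nearest to them were Ramp1, Myh11, 2410137F16Rik, Srcin1 and Efnb3. The measure was the root mean square difference between a gene's 4 centred group means of log2 CPM and the median of the 9, which was 0.098 for Ramp1 and 0.153 for Efnb3. For the 9 themselves it ran from 0.085 to 0.484. Ramp1, a receptor activity-modifying protein, held 22.7 ± 5.51 CPM in control, 49.98 ± 6.72 in moderate and 14.5 ± 5.23 in severe mice (SD, n = 3). Myh11, the smooth muscle myosin heavy chain, held 33.9 ± 10.3, 67.1 ± 8.27 and 15.1 ± 4.32 CPM. The severe changes of both turned positive with library size alone, to 0.64 and 0.12.

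Severe mouse 1047 was the lowest of the 3 severe mice for all 9 genes with TMM, with library size alone and in TPM. Over all tested genes this mouse was the lowest of the 3 in 40.8% with TMM and in 27.7% with library size alone. Without it, the TMM changes in severe mice were −1.34 for Metrn, −1.15 for Yipf7, −0.68 for Epha7 and −0.65 for St8sia5, and these 4 genes were still called lower. The other 5 were no longer called, at −0.95 for Kcne1l, −0.449 for Thpo, −0.30 for Tmtc1, −0.29 for Cpe and −0.26 for Lrp2bp. The changes in moderate mice were still called in 9 of 9 genes. Over the 12 fits that each left out 1 mouse, the severe value passed the calling rule in 12 for Metrn, Yipf7, Epha7 and St8sia5, in 9 for Cpe and Tmtc1, in 8 for Thpo, in 7 for Kcne1l and in 3 for Lrp2bp.

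Relative transcript length, a measure the choice did not use, was taken from the deposited counts and TPM. Dividing one by the other gives the effective length that the authors' program assigned to a gene in a library, here relative to the median gene of that library. It was compared between the 6 bi-transgenic and the 6 single-transgenic mice in 8 genes, since Kcne1l had under 10 counts in some libraries. Lrp2bp was shorter in bi-transgenic mice by 0.10 on the log2 scale (exact permutation test, two-sided, p = 0.00866, adjusted p = 0.0231 over 8 genes). Its relative length was 1.00 to 1.10 in control, 0.933 to 1.01 in moderate and 0.933 to 0.965 in severe mice. Yipf7 and Cpe were each lower by 0.04 on the log2 scale, with the smallest p that 6 against 6 mice allow (exact permutation test, p = 0.00216, adjusted p = 0.00866). The other 5 genes did not pass, with differences from −0.04 to 0.08. These lengths are relative to the median gene, and none of the 8 genes passed when the reference was set by genes with at least 1000 counts.

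The genes were placed on mm10 (GRCm38) by the GENCODE M21 annotation. Lrp2bp (chr8:45999303-46029477, plus strand) shares 349 of its 4338 exonic bases with Ankrd37 on the other strand. Whether counting used the strand is not given in the sources used here, so reads of such partners cannot be told apart. Ankrd37 had 54.9 to 62.0 counts in control mice, 154 to 172 in moderate mice and 79.9 to 106 in severe mice. It was higher in moderate mice with a log2 change of 0.91 (SE 0.16, edgeR adjusted p = 0.000212), and its severe value of −0.39 was short of the calling rule and turned to 0.91 with library size alone. Metrn (chr17:25793221-25797136, minus strand) shares 1826 of 3771 exonic bases with Gm26694 on the other strand, which was lower in severe mice by 1.43 on the log2 scale (SE 0.27, edgeR adjusted p = 0.000252; −0.12 with library size alone). On its own strand Metrn shares 286 bases with AC134908.4, which is not in the count table, so how its reads were assigned was not tested. St8sia5 shares 387 of 5432 exonic bases with Gm7276 on the other strand, which was at 0.50 in moderate mice, not called, and was lower in severe mice by 0.93 on the log2 scale (SE 0.29, edgeR adjusted p = 0.0106; 0.36 with library size alone). Thpo (chr16:20724454-20734511, minus strand) shares 239 of 2628 with Chrd. Chrd rose in both models, with log2 changes of 1.00 and 1.36, while Thpo did not rise in severe mice with TMM. Epha7 (chr4:28813131-28967499, plus strand), Tmtc1 (chr6:148232430-148444389, minus strand), Cpe (chr8:64592542-64693054, minus strand), Yipf7 (chr5:69516671-69542648, minus strand) and Kcne1l (chrX:142304752-142306294, minus strand) share 0 exonic bases with another annotated gene.

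Related genes of the same families or pathways were examined in 7 lists, with 52 genes tested. In moderate mice 16 were called higher, or 30.8% against 24.4% of all genes, and 6 lower, or 11.5% against 17%. In severe mice 18 were called higher, or 34.6% against 32.9% of all genes, and 11 lower, or 21.2% against 27.9%. The median log2 change of the 52 was 0.10 in moderate and 0.30 in severe mice (0.23 with genes under the detection floor at their bound), against 0.04 and 0.08 for all genes. None of the 52 was called higher in moderate and lower in severe mice (0.108% of all genes), and 0 were called in FLExD/+ mice (0.006% of all genes). With shares this small, counts of 0 do not set the related genes apart from other genes. All counts in this paragraph and the next are with TMM, and with library size alone 41 of the 52 were called higher and 3 lower in severe mice.

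The Eph receptors and ephrins had 16 genes tested, of which 7 were called higher and 1 lower in each model. Epha3, a receptor of the same class as Epha7, rose from 1.09 ± 0.436 CPM in control to 24.2 ± 4.22 in moderate and 17.4 ± 4.17 in severe mice (SD, n = 3), log2 changes of 4.46 (SE 0.32) and 3.99 (SE 0.32). Ephb1 rose by 3.29 and 2.47 on the log2 scale, and Ephb3 by 0.97 and 2.28. The 1 gene called lower, Efna1, an ephrin-A ligand named after its values were seen, was at −2.07 and −1.96, and was negative with library size alone too. Efnb3, an ephrin-B ligand with few counts, was at 1.22 in moderate mice and −0.42 in severe mice, the first called and the second not, and at 0.86 in severe mice with library size alone. Against moderate mice, 5 of the 16 were called higher in severe mice (17.6% of all genes) and 3 lower (18.8% of all genes). The 3 called lower, as Epha7 was, were Efnb3, Epha6 and Ephb1. Of these Epha6 was still called with library size alone.

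Of 5 KCNE subunits and channel partners tested, 1 was called higher in moderate mice and 1 lower in each model. Kcnq5, a potassium channel alpha subunit, fell by 1.51 in moderate and by 2.06 in severe mice. Kcne3, a sister subunit of Kcne1l named after its values were seen, was the gene called higher in moderate mice, at 1.03 (SE 0.41) from few counts. Of 3 other ST8Sia transferases tested, 2 were called higher in both models. St8sia2, a polysialyltransferase that modifies Ncam1, was at 0 counts in all control mice and at least 4.26-fold higher in moderate and at least 20.5-fold higher in severe mice, taken against 3 counts in the control library with the highest such floor. St8sia4, the other polysialyltransferase, rose by 0.54 and 0.90. The floor was 0.155 CPM with TMM.

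Of 8 YIP1 family genes, 1 was called higher in moderate mice, and 2 higher and 2 lower in severe mice. Yipf1 rose by 0.58 and 0.91, and Yipf5 rose by 0.75 in severe mice. Yif1b fell by 0.84 in severe mice with TMM and was at 0.46 with library size alone. Of 5 O-mannosyltransferases, Tmtc4, a paralog of Tmtc1, was the 1 gene called, at 3.29 in moderate and 3.01 in severe mice. Tmtc1 and Tmtc4 thus both rose in moderate mice, and with TMM stood on opposite sides of control in severe mice.

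Of 8 genes of prohormone processing and the carboxypeptidase family of Cpe, 3 were called higher and 2 lower in moderate mice, and 3 higher and 4 lower in severe mice. Cpxm1, a carboxypeptidase-like protein, rose by 1.62 and 2.98. Cpm, a membrane-bound carboxypeptidase, fell by 0.76 and by 1.34 with TMM, but was at −0.15 and −0.04 with library size alone, neither of them called. Aebp1, an extracellular carboxypeptidase-like protein, fell by 1.31 and by 0.94, and its severe value was 0.37 with library size alone. Of 7 tested partners of single genes, 1 was called higher and 2 lower in moderate mice, and 2 higher and 3 lower in severe mice. Metrnl, the paralog of Metrn, rose by 0.90 and 1.42. Stat5b, a transcription factor downstream of cytokine receptors, fell by 2.63 in moderate mice and fell by 3.47 in severe mice. Cubn, the endocytic partner of Lrp2, was at 1.12 in moderate mice, short of the calling rule, and rose by 2.41 in severe mice. Lrp2 itself did not pass the filter on low counts.

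**Figure D4:**
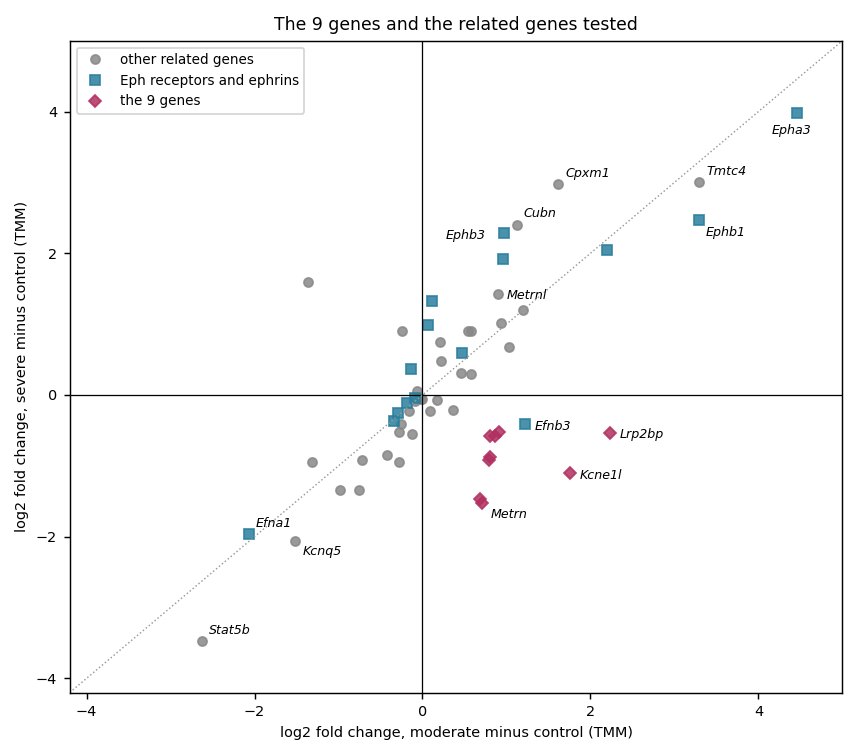
Log2 fold change against control in moderate mice (horizontal) and severe mice (vertical) with TMM for the 9 genes and for 49 related genes. The dotted line marks equal change, and 3 related genes under the detection floor in all control mice are not drawn. The 9 genes, chosen for this place, lie in the lower right quadrant. Of the related genes called in both models none lies there, and 0.108% of all genes were called that way. With library size alone 7 of the 9 move above the horizontal axis.

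Marker genes of other cells were measured beside these values, and their part in them was not tested. Calls are with TMM unless stated. Of 7 Schwann cell markers, 0 were called higher and 1 lower in moderate mice, and 1 was called higher and 4 lower in severe mice. Their summed TMM level was 20.5 to 37.9 CPM in control, 23.2 to 69.9 in moderate and 11.0 to 17.9 in severe mice, and none was at 0 in all libraries. With library size alone the sum was 14.5 to 27.2 CPM in control and 19.9 to 31.2 in severe mice, and 1 marker was called higher and 1 lower in severe mice. Of 8 denervation response genes, 8 were called higher in moderate and 6 in severe mice. Their sum was 49.2 to 59.5 CPM in control, 162 to 223 in moderate and 361 to 456 in severe mice. Of 3 regenerating fiber markers 3 were called higher in both models, and of 4 satellite cell markers 3. Of 8 mature fast fiber markers 7 were called lower in moderate and 8 in severe mice, and of 4 slow fiber markers 1 and 2.

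Of 5 endothelial markers 3 were called lower in moderate and 5 in severe mice, but with library size alone 1 was called lower in moderate mice, and 1 lower (Kdr) and 1 higher (Pecam1) in severe mice. Of 4 macrophage markers 4 were called higher in both models. Of 4 fibro-adipogenic progenitor markers 2 were called higher in moderate mice, and 1 higher and 1 lower in severe mice, where all 4 were called higher with library size alone. Of 3 adipocyte markers 0 were called in moderate mice and 3 were called lower in severe mice, against 0 with library size alone. Both megakaryocyte and platelet markers that were tested, from a list of 3, were called higher in both models, the cell type in which thrombopoietin acts. The 5 lymphocyte markers did not pass the filter, with a summed level of at most 0.664 CPM in any mouse with TMM and 0.778 with library size alone.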

How the data were processed

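Poly(A) RNA of 12 gastrocnemius muscles was sequenced as single reads. The estimated counts per gene were deposited by the authors, who mapped reads with RSEM 1.2.4, modified to call Bowtie, and TopHat2 2.0.8b to mm10 with a merged UCSC and Ensembl annotation; 31.8% to 36.2% of values above 0 are not whole, and no normalization had been applied. The TPM values were also deposited by the authors, scaled for transcript length and library. Of the 37748 genes, 16679 passed edgeR's filter. Here counts were rounded and tested across all genes in 1 fit of 4 groups with edgeR 4.0.16 (quasi-likelihood, TMM, no covariate, R 4.3.3), with p adjusted by Benjamini-Hochberg over all genes. Calls needed a log2 change of at least 0.5 beside an adjusted p under 0.05. DESeq2 1.42.0, limma 3.58.1 on log2(TPM + 1) or log2(TPM + 0.1), and edgeR with library size alone or median-of-ratios factors were alternatives, besides other filters, fold thresholds and reference mice and leaving out each mouse. Fold changes on log2(TPM + 1) understate low genes. Scripts were tested on simulated data. The simulation changed few genes, unlike these data, so it does not bear on the choice of scaling.

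The 9 genes and all lists were chosen with earlier results of these data known. Named are the 9 genes, the genes with opposite calls, the 5 nearest in profile and, of each list, at most 3 called genes with the largest change among those averaging 50 counts or more in their higher group. Adgre1 was found under its older symbol. Library totals are 23796902 to 29136403 counts, and intervals and floors from them cover counting error only. The groups hold 3 animals each, so an exact permutation test of 3 against 3 could not go below p = 0.10. Some genes of the related lists are counted in the list totals and are not reported here by name.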

Additional observations from a re-analysis of the deposited data

How the results depend on the processing

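Over 22 settings (the reported one included) the 9 genes gave 197 values for moderate mice against control, all positive and 186 called higher, and 197 for severe against moderate mice, all negative and 195 called lower. The genes were chosen for these signs and the settings refit the same mice, so these counts repeat the choice and test nothing. Of all genes, 24.4% were called higher in moderate mice with TMM and 52.5% with library size alone. The shares called lower in severe than in moderate mice were 18.8% and 4.93%. For severe mice against control, 175 of 196 values were negative and 21 positive. The 21 came from 7 genes under 3 settings. With library size alone the values were 0.71 for Cpe, 0.41 for Epha7, 0.17 for Kcne1l, 0.76 for Lrp2bp, 0.37 for St8sia5, 0.72 for Thpo and 0.76 for Tmtc1. On log2(TPM + 1) they were 0.54, 0.16, 0.044, 0.56, 0.21, 0.31 and 0.58 in the same order, and on log2(TPM + 0.1) they were 0.55, 0.34, 0.14, 0.68, 0.22, 0.53 and 0.60. These 3 settings do not centre the libraries on the median gene.

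Of the 9 genes called lower in severe mice, 0 were called with library size alone, on log2(TPM + 1) or on log2(TPM + 0.1). The number was 4 without a filter, 4 with at least 10 counts in every library, 4 with only the groups compared in the fit and 3 at a log2 change of at least 1. With opposite calls these were 0, 0, 0, 3, 4, 4 and 1. In moderate mice 2 of the 9 were called at a log2 change of at least 1. Over all genes, opposite calls fell from 18 to 9 with library size alone, 7 and 8 on the TPM scales, 10 without a filter and 2 at a log2 change of at least 1, and rose to 61 without a fold threshold. With FLExD/+ mice as the reference, 8 of the 9 were called higher in moderate mice (Thpo at 0.46 was not) and 7 lower in severe mice (Cpe at −0.453 and Tmtc1 at −0.43 were not). The share of all genes called in a single comparison was counted only with TMM, median-of-ratios factors and library size alone. Under the other settings, here and below, the counts of the 9 genes have no such background and describe those genes alone.

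Leaving out 1 mouse gave 4 to 9 of the 9 genes called lower in severe mice, 3 to 8 with opposite calls, 8 to 9 called higher in moderate mice, 9 to 9 lower in severe than moderate mice and 0 to 0 in FLExD/+ mice. The number lower in severe mice was 4 without severe mouse 1047, 5 without control mouse 1246 and 4 without control mouse 1349, and the opposite calls were 4, 4 and 3. Over all genes opposite calls ran from 10 to 21, with 10 without severe mouse 1047 and 10 without control mouse 1349. Yipf7 was not called higher in moderate mice in 9 of the 12 fits without 1 mouse, and Metrn, Yipf7, Epha7 and St8sia5 were called lower in severe mice in all 12.

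Of the related genes, 30 were called higher in moderate mice with library size alone, 26 on log2(TPM + 0.1) and 10 with at least 10 counts in every library. In severe mice 41, 35 and 41 were called higher and 3, 3 and 3 lower with library size alone, log2(TPM + 1) and log2(TPM + 0.1), and 5 were called lower at a log2 change of at least 1. Leaving out 1 mouse gave 12 to 15 higher and 6 to 7 lower in moderate mice, and 19 to 21 higher and 9 to 11 lower in severe mice. The 3 genes that passed for relative length became 0 with reference genes of at least 1000 counts and 5 with severe mice alone against the single-transgenic mice, and were 2 to 3 without 1 mouse. Except where a setting's own construction shows it, the cause was not tested.

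No paired analysis was possible because the groups share no replicate number. Kcne1l was not tested with at least 10 counts in every library, nor in the fit of severe and control mice alone. With 4 to 12 counts per control mouse, its control and severe counts overlapped and its lower call in severe mice passed in 7 of the 12 fits without 1 mouse, and Thpo and Epha7 rest on few counts too. DESeq2 and median-of-ratios factors changed none of the counts above by more than 1.5 times.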
